A study of Mus musculus with 6 samples.

Results

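The epidermal growth factor (EGF) family genes described here are 9 rows of a table of 22239 genes: the ligand genes Areg, Btc, Ereg and Hbegf, the receptor genes Egfr, Erbb2, Erbb3 and Erbb4, and Errfi1, which encodes an inhibitor of the receptors. They were chosen by symbol, and all 9 were found and passed the filter on low values. Ereg passed it only through the AT2 libraries and Erbb4 only through the Club libraries. RNA of sorted mouse lung epithelium was sequenced in bulk, with 2 samples from each of 3 populations of mice aged 8 weeks. Bronchioalveolar stem cells (BASC) were positive for both CCSP-mCherry and SPC-YFP, reporters of the Club cell gene Scgb1a1 and of the alveolar type 2 (AT2) gene Sftpc. The AT2 group was gated on SPC-YFP and the Club group on CCSP-mCherry, and all lungs were first depleted of CD31 and CD45 bearing cells. Every group thus rests on reporter fluorescence, and the labels give no strain, injury or treatment. Nothing in the labels says that the 2 samples of a group are different animals, and the spread behind every p-value here may be technical.

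EGF family ligands are made as membrane-bound precursors, and proteases such as the one encoded by Adam17 release them to act on the same or a neighbouring cell. Amphiregulin (Areg) binds the EGF receptor, while betacellulin (Btc), epiregulin (Ereg) and heparin-binding EGF (Hbegf) can bind both the EGF receptor and ERBB4. ERBB2 has no known ligand of its own and ERBB3 has an impaired kinase, so both signal in dimers with other family members, with neuregulins as the ligands of ERBB3 and ERBB4. The receptors feed the RAS to ERK and the PI3K to AKT cascades, and in lung epithelium the family is known for its part in growth and in repair after injury.

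Normalised read counts of 6 libraries were compared, with depths estimated at 10.1 M to 18.2 M reads over the listed genes. A count of 0 allows up to 3 reads, which came to between 2.29 and 4.02 normalised counts per library and covers counting error only. Checked against markers, all 10 AT2 markers were called higher, and all 10 Club markers lower, in BASC and in AT2 cells than in Club cells. Club markers summed to 100647 and 123647 normalised counts in BASC, 19078 and 22002 in AT2 cells and 1268349 and 1213408 in Club cells. Cbr2 made up most of the AT2 sums, at 18423 and 21448, against 41810 and 46857 in BASC. No other Club marker exceeded 413 in an AT2 library, the level of Scgb1a1, which had 43993 and 58791 in BASC. Markers of ciliated cells, all 10 of them listed, summed to 3139 and 3070 in BASC and to 2537 and 2793 in AT2 cells, against 12045 and 11745 in Club cells. Tubb4b and Tppp3 made up most of the BASC and AT2 sums. The other ciliated markers had at most 169 in any BASC or AT2 library and between 146 and 2147 in Club cells. Rsph1 and Tekt1 were at 0 in both AT2 libraries. Of 10 leukocyte markers 4 were listed, and apart from Lyz2, which AT2 cells also express, none exceeded 280 in any library. Of 8 endothelial markers 4 were listed, summing to between 11 and 104. Of 6 basal cell markers 3 were listed, summing to 32 and 73 in BASC, 79 and 14 in AT2 cells and 595 and 195 in Club cells. Neuroendocrine markers (4 of 6 listed) summed to at most 29, and mesenchymal markers (6 of 8 listed) to at most 240. Alveolar type 1 markers, all 10 of them listed, summed to 21062 and 20906 in BASC, 21484 and 23250 in AT2 cells and 11240 and 12600 in Club cells. Of these, 3 were called higher and 1 lower in BASC, and 4 higher and 2 lower in AT2 cells, than in Club cells, beside 11.2% and 18.1% of all tested genes. The ciliated and basal sums thus lay highest and the alveolar type 1 sum lowest in Club cells. The part of these lists in the differences between Club cells and the other populations was not tested.

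BASC combined an Areg level near that of AT2 cells with a Btc level near that of Club cells. Against AT2 cells only Btc passed the test, 4.68-fold higher in BASC. Against Club cells Areg and Errfi1 were higher and Erbb4 was lower in BASC, and between AT2 and Club cells 6 of the 9 members differed. Levels were tested as log2(normalised count + 1) in 1 limma fit over all 6 samples, with Benjamini-Hochberg adjustment over the 17721 genes that reached 10 in at least 2 samples, and an adjusted p under 0.05 counts as a call. In BASC against AT2 cells 1 of the 9 members was called, higher in BASC, where 0.632% of all tested genes were called, 0.553% higher and 0.079% lower. At an unadjusted limma p under 0.05 there were 3 of the 9 members, beside 2336 of all 17721 tested genes. With Club cells as the other side, 3 members were called for BASC, 2 higher and 1 lower, beside 11.2% of all genes, 5.77% higher and 5.42% lower. For AT2 cells 6 members were called, 3 higher and 3 lower, beside 18.1% of all genes, 8.42% higher and 9.71% lower. Both counts against Club cells include Erbb4, and that of AT2 cells includes Ereg. Erbb4 and Ereg each passed the filter only through the group where the gene was high. The median log2 fold change of the members was -0.13, 0.37 and 0.52 in these comparisons, and that of all tested genes was 0, -0.10 and -0.10. The comparisons share samples in pairs, so their results are given side by side and are not independent. In bulk RNA, fewer cells expressing a gene and less of its RNA per cell cannot be told apart.

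**Figure D1:**
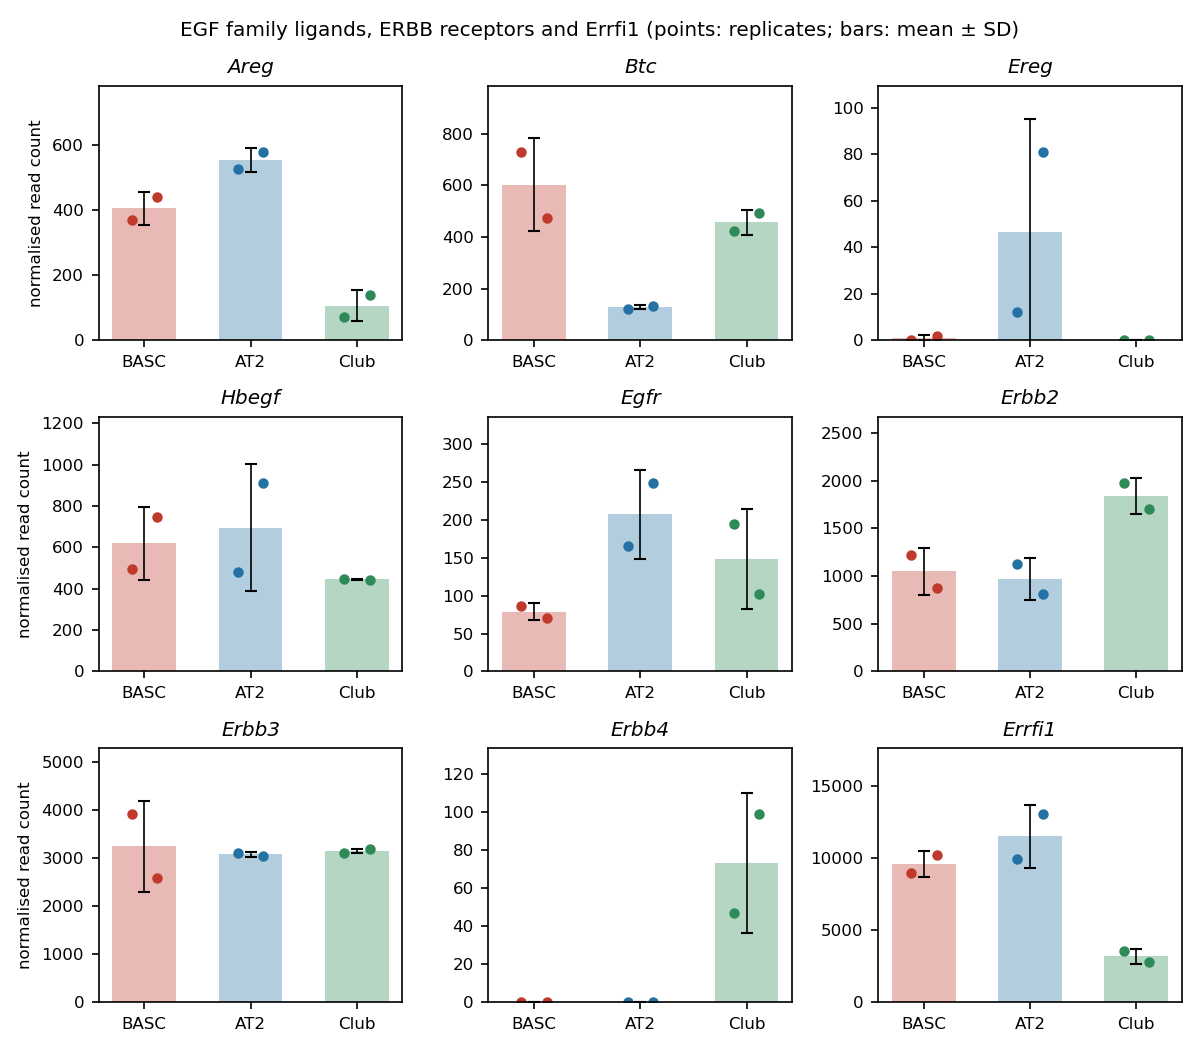
Normalised read counts of the 9 members in BASC, AT2 and Club cells, each panel with its own axis from 0. Points are the 2 replicates, bars the mean and whiskers the SD, cut at 0 for Ereg. Areg and Errfi1 stand low in Club cells, Btc stands low in AT2 cells, and Erbb4 is at 0 outside Club cells.

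Areg (ENSMUSG00000029378, GRCm38 chromosome 5, 91139599 to 91148432, plus strand) had 370 and 441 normalised counts in BASC, 527 and 579 in AT2 cells and 73 and 141 in Club cells. Both BASC and both AT2 libraries lay above both Club libraries, and the BASC libraries lay below the AT2 libraries. The mean was 3.79-fold higher in BASC than in Club cells (405.5 ± 50.2 against 107 ± 48.1, SD, n = 2 each), with a log2 fold change of 1.98 ± 0.36 (SE, limma adjusted p = 0.0147). AT2 cells were 5.17-fold higher than Club cells (log2 fold change 2.43 ± 0.36, limma adjusted p = 0.00391). Between BASC and AT2 cells the log2 difference was -0.45 ± 0.36 and was not called (limma adjusted p = 0.659). The call of Areg against Club cells was lost without BASC replicate 1 (limma adjusted p = 0.0708), without BASC replicate 2 (0.0984) and without Club replicate 1 (0.052), while that of AT2 against Club cells held without any single library.

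Btc (ENSMUSG00000082361, chromosome 5, 91357261 to 91402994, minus strand) showed another order. It had 729 and 475 normalised counts in BASC, 123 and 134 in AT2 cells and 422 and 491 in Club cells. The BASC and Club libraries overlapped, and both AT2 libraries lay below all the others. BASC averaged 602 ± 180 and AT2 cells 128.5 ± 7.78 (SD, n = 2 each), a log2 fold change of 2.19 ± 0.29 (SE, limma adjusted p = 0.0275). AT2 cells were 3.55-fold lower than Club cells (log2 fold change -1.82 ± 0.29, limma adjusted p = 0.00550). BASC and Club cells differed by a log2 fold change of 0.37 ± 0.29 that was not called (limma adjusted p = 0.508). The difference between BASC and AT2 cells was no longer called without BASC replicate 1 (limma adjusted p = 0.176), BASC replicate 2 (0.180), AT2 replicate 1 (0.102) or AT2 replicate 2 (0.103), with log2 fold changes between 1.88 and 2.50.

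Areg and Btc lie on the same stretch of chromosome 5, with Epgn, another ligand gene of the family, 112 kb and Ereg 65.0 kb before the start of Areg, and the start of Btc 263 kb beyond it. The promoters of the members called in 2 comparisons are shown as the 250 bases before the RefSeq start of each gene (RefSeq, GRCm38.p6), written in the direction of transcription. Capitals mark matches on either strand to 6 motifs. The motif of activator protein 1 was searched as TGANTCA and the cyclic AMP response element as TGACGTCA. The letters for TEAD factors were CATTCC and those for forkhead factors TGTTTNC. The GC box was read as GGGCGG, and the last motif, of core promoters, as TATAAA.
Areg, chr5:91139349-91139598, plus strand: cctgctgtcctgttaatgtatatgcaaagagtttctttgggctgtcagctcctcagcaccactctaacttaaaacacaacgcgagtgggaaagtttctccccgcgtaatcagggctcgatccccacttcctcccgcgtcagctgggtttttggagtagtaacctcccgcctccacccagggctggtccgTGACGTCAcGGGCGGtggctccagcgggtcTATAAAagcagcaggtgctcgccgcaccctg
Btc, chr5:91402995-91403244, minus strand: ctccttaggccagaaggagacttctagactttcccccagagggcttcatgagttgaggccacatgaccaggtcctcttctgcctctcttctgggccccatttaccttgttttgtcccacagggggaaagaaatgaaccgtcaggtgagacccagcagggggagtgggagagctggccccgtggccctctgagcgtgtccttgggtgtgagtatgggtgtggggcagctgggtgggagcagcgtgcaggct
Errfi1, chr4:150853546-150853795, plus strand: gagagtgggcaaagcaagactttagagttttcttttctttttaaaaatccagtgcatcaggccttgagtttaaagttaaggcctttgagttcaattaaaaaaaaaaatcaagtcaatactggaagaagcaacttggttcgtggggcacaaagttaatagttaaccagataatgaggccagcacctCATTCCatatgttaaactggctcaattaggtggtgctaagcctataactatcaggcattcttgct
Erbb4, chr1:69108060-69108309, minus strand: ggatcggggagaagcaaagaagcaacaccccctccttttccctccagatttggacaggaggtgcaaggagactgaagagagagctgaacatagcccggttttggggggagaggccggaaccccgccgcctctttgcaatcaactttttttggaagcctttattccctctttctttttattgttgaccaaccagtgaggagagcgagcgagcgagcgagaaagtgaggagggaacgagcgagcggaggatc
The Areg window held TGACGTCA from position -61, GGGCGG from -52 and TATAAA from -31, counted back from the start. Of 32851 RefSeq promoter windows of this length, 1.55% held TGACGTCA, 32.7% GGGCGG and 12.4% TATAAA. The Errfi1 window held CATTCC at -65, as did 12.6% of all windows on either strand. Errfi1 has 2 RefSeq promoter entries, and only the one nearest the start in the deposited annotation, 123 bases from it, is shown. The letters of the 6 motifs were not in the Btc and Erbb4 windows. TGANTCA was in 6.75% and TGTTTNC in 17.8% of all windows.

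Ereg (ENSMUSG00000029377, chromosome 5, 91074622 to 91093646, plus strand) was close to the detection limit. It had 0 and 2 normalised counts in BASC, 12 and 81 in AT2 cells and 0 in both Club libraries. Only the AT2 libraries stood above the limit that a count of 0 allows, and they differed widely between themselves. The AT2 mean was 16.6-fold the mean Club floor of 3 reads per library (limma adjusted p = 0.0377), and most of that mean came from AT2 replicate 2. Ereg passed the filter only through the AT2 libraries, where it was high, so this call is not independent of the filter. The call was lost when 8 instead of 1 was added before the log (limma adjusted p = 0.0571). It was lost as well without the filter on low values (limma adjusted p = 0.0568) and in a limma fit without a trend (0.0604). Leaving out either Club library also lost it, at a log2 fold change of 5.03. Without either AT2 library the gene was not tested. BASC against AT2 cells was not called (limma adjusted p = 0.226). An antisense gene, Gm19610, overlaps 3.42% of the exon bases of Ereg, and whether counting used strand is not given in the sources used here.

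Hbegf (ENSMUSG00000024486) was measured at similar levels in the 3 populations. It had 493 and 745 normalised counts in BASC, 480 and 911 in AT2 cells and 446 and 443 in Club cells. BASC and AT2 libraries overlapped, and all of them lay above the Club libraries. No difference was called: the log2 fold changes were -0.13 ± 0.34 for BASC against AT2, 0.45 ± 0.34 for BASC against Club and 0.57 ± 0.34 for AT2 against Club cells (SE, n = 2 each, limma adjusted p = 0.923, 0.497 and 0.323).

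Erbb3 (ENSMUSG00000018166, chromosome 10, 128567523 to 128589652, minus strand) was level across the populations. It had 3921 and 2584 normalised counts in BASC, 3118 and 3040 in AT2 cells and 3117 and 3187 in Club cells. The BASC libraries lay above and below all the others. Its log2 fold changes were 0.05 ± 0.19 for BASC against AT2, 0.01 ± 0.19 for BASC against Club and -0.03 ± 0.19 for AT2 against Club cells (SE, limma adjusted p = 0.954, 0.977 and 0.938).

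Erbb2 (ENSMUSG00000062312, chromosome 11, 98412470 to 98437716, plus strand) was higher in Club cells. It had 1223 and 873 normalised counts in BASC, 1128 and 813 in AT2 cells and 1976 and 1705 in Club cells. Both Club libraries lay above all the others, and the BASC and AT2 libraries overlapped. AT2 cells were 1.90-fold lower than Club cells (log2 fold change -0.94 ± 0.23, SE, limma adjusted p = 0.0311). BASC were 1.76-fold lower by the means (log2 fold change -0.83 ± 0.23) and narrowly missed the threshold (limma adjusted p = 0.0654), which they passed in 5 of 16 alternatives. The call in AT2 against Club cells was lost without AT2 replicate 2 (limma adjusted p = 0.14), Club replicate 1 (0.152) or Club replicate 2 (0.0625).

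Egfr (ENSMUSG00000020122, chromosome 11, 16752203 to 16918158, plus strand), the receptor of all 4 ligands, had few reads. It had 87 and 71 normalised counts in BASC, 166 and 249 in AT2 cells and 195 and 102 in Club cells. Both BASC libraries lay below all the others, and the AT2 and Club libraries overlapped. No difference was called, with log2 fold changes of -1.36 ± 0.48 for BASC against AT2 (SE, limma adjusted p = 0.291) and -0.84 ± 0.48 for BASC against Club cells (adjusted p = 0.355). AT2 against Club cells gave 0.52 ± 0.48 (limma adjusted p = 0.536). The antisense gene Egfros overlaps the locus without covering its exons.

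Erbb4 (ENSMUSG00000062209, chromosome 1, 68032186 to 69108059, minus strand) was listed at 0 in both BASC and both AT2 libraries and had 47 and 99 normalised counts in Club cells. The Club mean was 21.6-fold the BASC floor and 26.6-fold the AT2 floor (limma adjusted p = 0.0128 and 0.00797). Erbb4 passed the filter only through the Club libraries, where it was high, so these calls are not independent of the filter. Each floor is 3 reads per library averaged over the group. Without either Club library Erbb4 did not pass the filter on low values and was not tested. Of the 10 ciliated markers, 6 were called lower in BASC and 10 in AT2 cells than in Club cells. All 10 Club markers were called lower in both, so Erbb4 moved with both lists, and their part in its difference was not tested.

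Errfi1 (ENSMUSG00000028967, chromosome 4, 150853919 to 150868892, plus strand), also known as Mig6, encodes a cytoplasmic protein that binds and inhibits the EGF receptor kinase and is itself raised by receptor signalling. It had 8946 and 10215 normalised counts in BASC, 9977 and 13072 in AT2 cells and 3573 and 2832 in Club cells. Both Club libraries lay below all the others, and the BASC and AT2 libraries overlapped. Errfi1 was 2.99-fold higher in BASC than in Club cells (9580.5 ± 897 against 3202.5 ± 524, SD, n = 2 each), with a log2 fold change of 1.59 ± 0.17 (SE, limma adjusted p = 0.00163). It was 3.60-fold higher in AT2 than in Club cells (log2 fold change 1.84 ± 0.17, limma adjusted p = 0.000476). BASC against AT2 cells gave -0.26 ± 0.17 and was not called (limma adjusted p = 0.597). Both calls held without any single library.

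**Figure D2:**
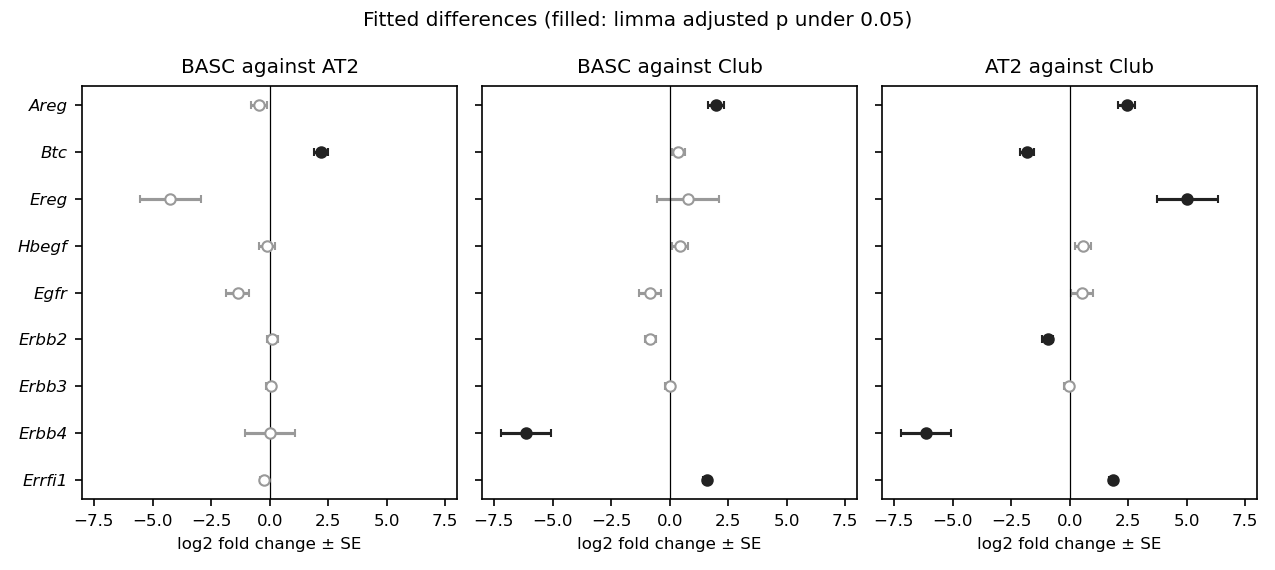
Fitted log2 fold changes of the 9 members in the 3 comparisons, with SE. Filled points have a limma adjusted p under 0.05, numbering 1 for BASC against AT2, 3 for BASC against Club and 6 for AT2 against Club cells.

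Ligands and receptors were set against each other per kilobase of exon, since longer transcripts give more reads. The 4 ligand genes together had 567.8 and 622.65 normalised counts per kilobase in BASC, 563 and 714 in AT2 cells and 246 and 316 in Club cells. The 4 receptor genes had 894 and 603 in BASC, 749 and 683 in AT2 cells and 918 and 874 in Club cells. The ligand sum in both Club libraries lay below all the others, while the receptor sums of the groups overlapped between BASC and each of the other populations. The ratio of ligand to receptor level was 0.635 and 1.03 in BASC, 0.751 and 1.05 in AT2 cells and 0.268 and 0.362 in Club cells. These sums and ratios describe the chosen members and were not tested. The 7 other ligand genes of the family are left out of them and were highest in Club cells. Without a length these summed to 436 and 442 normalised counts in BASC, 230 and 289 in AT2 cells and 574 and 748 in Club cells.

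The make-up of the ligand sum depends on exon length, since Areg has 1.215 kb of exon and the other ligand genes between 4.128 and 4.834 kb. Areg held 53.6% and 58.3% of the ligand level per kilobase in BASC, 77.0% and 66.7% in AT2 cells and 24.5% and 36.7% in Club cells. Btc held 28.4% and 16.9% in BASC, 4.83% and 4.15% in AT2 cells and 38.0% and 34.3% in Club cells. BASC libraries lay between those of AT2 and Club cells in both shares per kilobase. By counts without a length, Areg held 23.2% and 26.5% of the ligand counts in BASC, 46.1% and 34.0% in AT2 cells and 7.76% and 13.1% in Club cells. Btc then held 45.8% and 28.6% in BASC, 10.8% and 7.86% in AT2 cells and 44.8% and 45.7% in Club cells. Hbegf held 31.0% and 44.8% in BASC, 42.0% and 53.4% in AT2 cells and 47.4% and 41.2% in Club cells. On that scale Areg was below Btc and Hbegf in both BASC libraries, while its order across the populations was as before. Erbb3 held 72.9% and 71.2% of the receptor level per kilobase in BASC, 69.2% and 73.9% in AT2 cells and 56.4% and 60.6% in Club cells. Erbb2 held most of the rest, at 26.3% and 27.8% in BASC, 28.9% and 22.8% in AT2 cells and 41.3% and 37.4% in Club cells. Egfr held between 0.859% and 3.22% in any library.

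**Figure D3:**
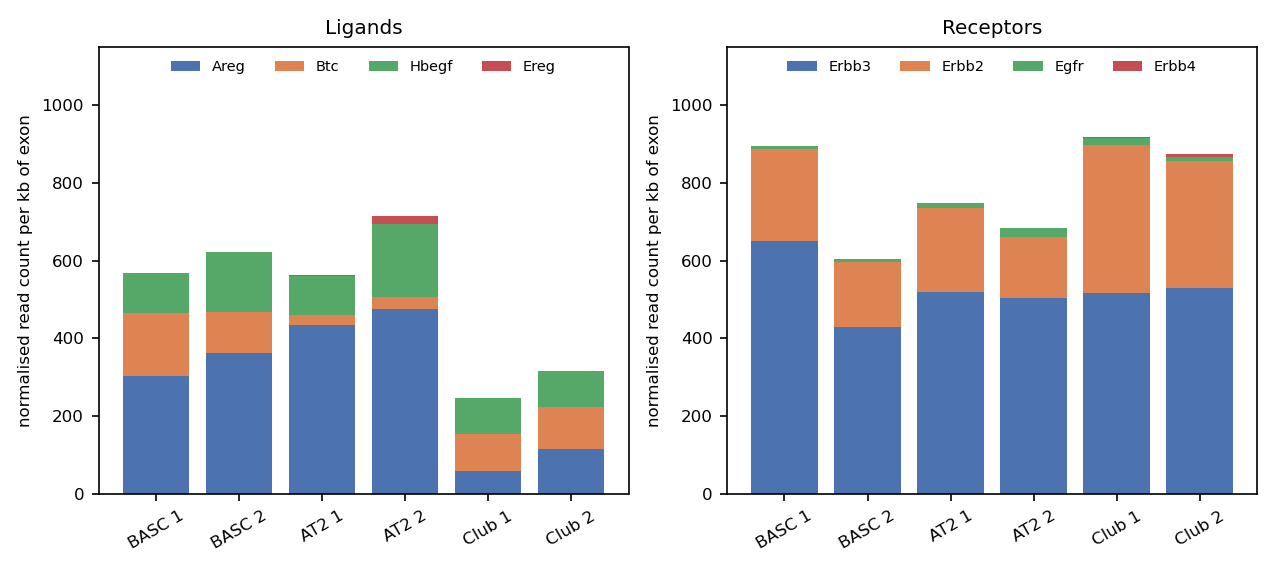
Normalised read counts per kilobase of exon of the ligand genes (left) and receptor genes (right), stacked for each of the 6 libraries. Ligand stacks reach between 563 and 714 in BASC and AT2 libraries and 246 and 316 in Club libraries, with Areg the main part outside Club cells on this scale, and Erbb3 is the main part of every receptor stack.

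Of the 7 other ligand genes of the family, 4 passed the filter on low values. Among these limma called 2, both lower in AT2 than in Club cells, where 9.71% of all tested genes were called lower. Tgfa, which encodes transforming growth factor alpha, another EGF receptor ligand, had 307 and 267 normalised counts in BASC, 213 and 237 in AT2 cells and 406 and 483 in Club cells, and was 1.98-fold lower in AT2 than in Club cells (limma adjusted p = 0.0388). Both Club libraries lay above all the others. Nrg1, the neuregulin 1 gene, had 43 and 80 in BASC, 0 and 13 in AT2 cells and 107 and 113 in Club cells, and was 16.9-fold lower in AT2 than in Club cells by the means (limma adjusted p = 0.0417). Both calls were lost without either Club library, with limma adjusted p of 0.16 for Nrg1 and of 0.17 and 0.32 for Tgfa. They were also lost without AT2 replicate 1 (Nrg1 0.060, Tgfa 0.11), and that of Tgfa without AT2 replicate 2 (0.0815) and that of Nrg1 without BASC replicate 1 (0.0792) or BASC replicate 2 (0.080). Nrg4 had 50 and 5 in BASC, 9 and 17 in AT2 cells and 52 and 127 in Club cells, and Egf had 33 and 35 in BASC, 8 and 14 in AT2 cells and 7 and 11 in Club cells, with no call. Epgn, Nrg2 and Nrg3 did not pass the filter and had at most 31 in any library.

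Around the members, inhibitors of the RAS to ERK cascade lay higher in BASC and AT2 cells than in Club cells, the same order as Errfi1. Of 13 such genes tested, 7 were called higher and none lower in BASC against Club cells, with a median log2 fold change of 1.06, where 5.77% of all genes were called higher. In AT2 against Club cells 9 were higher and none lower (median 1.62, where 8.42% of all genes were called higher). In BASC against AT2 cells limma called 0 of 13, where 0.632% of all tested genes were called. Receptors of other growth factors also feed these inhibitors.

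Spry1, a Sprouty inhibitor of RAS activation, had 3334 and 2920 normalised counts in BASC, 3718 and 3014 in AT2 cells and 951 and 1235 in Club cells. It was 2.86-fold higher in BASC (limma adjusted p = 0.00233) and 3.08-fold higher in AT2 cells (0.00104) than in Club cells. Spred2, of a related family, was 3.05-fold higher in BASC (limma adjusted p = 0.00148) and 3.45-fold higher in AT2 cells (0.000545). Spred3 had 111 and 163 in BASC, 200 and 166 in AT2 cells and 18 and 5 in Club cells (limma adjusted p = 0.0216 for BASC and 0.00902 for AT2 against Club cells). Dusp4, an ERK phosphatase gene, was 3.36-fold higher in BASC (limma adjusted p = 0.00840) and 4.43-fold higher in AT2 cells (0.00213). Dusp7, of the same family, had 293 and 353 in BASC, 585 and 919 in AT2 cells and 163 and 213 in Club cells, and was higher in AT2 than in Club cells (limma adjusted p = 0.00496). In a limma fit without a trend 1 of the 13 was called in BASC against Club cells, with Spry1 (adjusted p = 0.0595), Dusp4 (0.0643) and Spred3 (0.0521) among those lost, and 6 in AT2 against Club cells. Without BASC replicate 1 or BASC replicate 2 the genes called higher in BASC against Club cells numbered 3, with Dusp4 (limma adjusted p = 0.0542 and 0.0743) and Spred3 (0.0787 and 0.113) among those lost. Spred3 was also lost without Club replicate 2 (limma adjusted p = 0.0568), and in AT2 against Club cells without AT2 replicate 1 (0.0566).

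**Figure D4:**
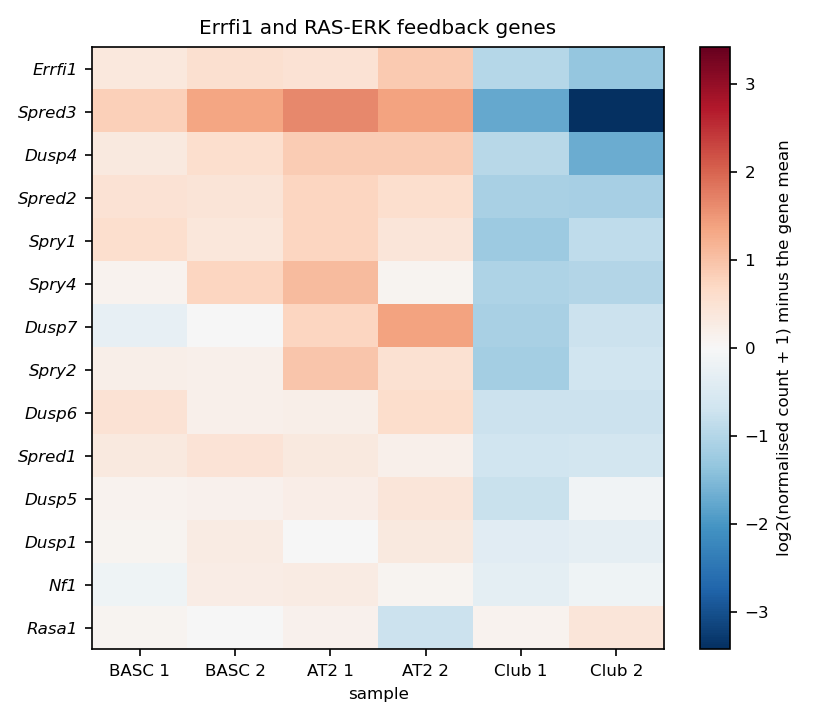
Errfi1 and 13 inhibitors of the RAS to ERK cascade in the 6 libraries, as log2(normalised count + 1) minus the mean of each gene. Red is above and blue below the gene mean, and both Club columns are blue in every row but Rasa1.

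Genes that act on the receptors themselves differed in both directions. Of 18 genes of receptor turnover tested, 1 was called higher in BASC than in AT2 cells, where 0.553% of all tested genes were called higher. The called gene was Lrig1, which encodes a membrane protein that promotes degradation of ERBB receptors. It had 1405 and 1325 normalised counts in BASC, 504 and 666 in AT2 cells and 2199 and 2407 in Club cells, with each population apart from the others. Against AT2 cells Lrig1 was 2.33-fold higher in BASC (limma adjusted p = 0.0378), against Club cells 1.69-fold lower in BASC (0.0374) and 3.94-fold lower in AT2 than in Club cells (0.000387). The first of these was lost without either BASC library (limma adjusted p = 0.190 and 0.257) or AT2 replicate 1 (0.0915), and the second without any BASC or Club library (0.115 to 0.245). Usp8, a deubiquitinase that spares receptors on endosomes, had 5307 and 4570 in BASC, 7552 and 7441 in AT2 cells and 1479 and 1316 in Club cells, 3.53-fold higher in BASC and 5.36-fold higher in AT2 than in Club cells (limma adjusted p = 0.000188 and 2.93e-05). Against Club cells 1 gene of this list was higher and 4 lower in BASC, and 2 were higher and 4 lower in AT2 cells, where 11.2% and 18.1% of all tested genes were called. Without a trend limma called 2 genes of the list in BASC and 3 in AT2 cells against Club cells, and 0 in BASC against AT2 cells. The lower ones in BASC included Cblb, a ubiquitin ligase gene (1.96-fold, limma adjusted p = 0.0346), and Ptprj, a receptor phosphatase gene (1.57-fold, adjusted p = 0.0497). In AT2 cells Ptprj was 2.09-fold and Ptprk, another receptor phosphatase gene, 1.94-fold lower (limma adjusted p = 0.00529 and 0.00864), and Socs3 was 2.08-fold higher (0.0339). The median log2 fold change of the list was -0.26 in BASC and -0.24 in AT2 cells. Cblb was no longer called without any BASC or Club library (limma adjusted p 0.0703 to 0.220), Ptprj in BASC without any of the 6 (0.0628 to 0.318), and Socs3 without any but Club replicate 2 (0.0588 to 0.171). The calls of Usp8, and those of Lrig1, Ptprj and Ptprk in AT2 against Club cells, held without any single library.

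Of 11 genes of ligand shedding, 1 was higher and 2 lower in BASC than in Club cells, and 3 were higher and 1 lower in AT2 than in Club cells, with medians of -0.47 and -0.18 and 11.2% and 18.1% of all genes called. Adam17, which encodes the main sheddase of Areg and Hbegf, had 990 and 817 normalised counts in BASC, 1294 and 1133 in AT2 cells and 683 and 643 in Club cells, and was 1.83-fold higher in AT2 than in Club cells (limma adjusted p = 0.0152). Rhbdf2, which encodes a partner protein of that protease, was 1.83-fold higher in AT2 than in Club cells (limma adjusted p = 0.0453). Adam19, another metalloprotease gene of the family, had 3405 and 2964 in BASC, 5765 and 7855 in AT2 cells and 0 and 4 in Club cells (limma adjusted p = 0.000116 for BASC and 4.53e-05 for AT2 against Club cells). Adam15 was 2.58-fold lower in BASC than in Club cells (limma adjusted p = 0.0182). Adam15 was no longer called without BASC replicate 1 or either Club library (limma adjusted p 0.0651 to 0.178), Adam17 without AT2 replicate 1 or either Club library (0.0694 to 0.0974), and Rhbdf2 without any but Club replicate 1 (0.0582 to 0.262). Adam19 held throughout. Between BASC and AT2 cells limma called 0 of the 11, where 0.632% of all tested genes were called.

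Next came the cascades themselves. Of 18 adaptor and kinase genes between the receptors and ERK, the adaptor gene Grb2 was higher in BASC than in Club cells (2.00-fold, limma adjusted p = 0.0251). Map2k1 (2.50-fold, adjusted p = 0.0172) and Sos2 (2.06-fold, adjusted p = 0.0200) were higher in AT2 than in Club cells. The other 17 and 16 genes were not called, and the list medians were 0.04 and 0.23, with 11.2% and 18.1% of all genes called. Grb2 was no longer called without any BASC or Club library (limma adjusted p 0.0607 to 0.197), Map2k1 without AT2 replicate 2 (0.100) or Club replicate 1 (0.0651), and Sos2 without AT2 replicate 1 or either Club library (0.0584 to 0.0845). Of 11 genes of the PI3K to AKT arm, 4 were called higher in BASC and 3 in AT2 cells, each against Club cells, with none lower (medians 0.18 and 0.10), where 5.77% and 8.42% of all genes were called higher. Without a trend limma called 0 genes of either list. Irs1, an insulin receptor substrate gene, had 1262 and 957 normalised counts in BASC, 1165 and 1387 in AT2 cells and 266 and 451 in Club cells (limma adjusted p = 0.0117 for BASC and 0.00442 for AT2 against Club cells). Akt2 and Irs2 were higher in both (1.67-fold and 1.56-fold in BASC, 1.97-fold and 1.81-fold in AT2 cells, limma adjusted p between 0.00588 and 0.0481), and Pik3ca was 1.48-fold higher in BASC than in Club cells (limma adjusted p = 0.0368). In BASC against Club cells Irs1 was lost without either BASC library (limma adjusted p = 0.0896 and 0.0599), Akt2 without any BASC or Club library (0.067 to 0.199), Irs2 without any but Club replicate 2 (0.0642 to 0.270) and Pik3ca without any of the 6 (0.0528 to 0.302). In AT2 against Club cells Irs2 was lost without AT2 replicate 2 (limma adjusted p = 0.075), and Irs1 and Akt2 held. Between BASC and AT2 cells limma called 0 of the 18 and 0 of the 11 genes, where 0.632% of all tested genes were called.

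Immediate-early genes, which growth factor signalling raises and which tissue dissociation raises as well, were summed because Areg, Hbegf and Errfi1 are known to respond to the same stimuli. The 20 genes summed to 114994 and 128398 normalised counts in BASC, 71103 and 92545 in AT2 cells and 83932 and 84507 in Club cells, so BASC libraries lay above all the others. Against AT2 cells 1 of these genes was called higher in BASC, with 19 of 20 fold changes positive (median 0.56). Against Club cells 4 were called higher in BASC (median 0.39), and 1 was higher and 2 lower in AT2 than in Club cells. Over all genes 0.632%, 11.2% and 18.1% were called in these comparisons, so the AT2 count is no larger than the background. Without a trend limma called 0 of the 20 in each comparison. Egr1 had 10021 and 9739 in BASC, 4824 and 5121 in AT2 cells and 3984 and 4517 in Club cells (limma adjusted p = 0.0141 for BASC against AT2 and 0.000668 for BASC against Club cells). The first of these was lost without any BASC or AT2 library (limma adjusted p between 0.0564 and 0.240). Against Club cells, BASC were also higher in Fosb, Junb and Jund, by 1.78-fold, 1.75-fold and 1.48-fold (limma adjusted p = 0.0190, 0.0221 and 0.0303). Jund was 1.41-fold higher, and Fosl2 and Nr4a1 were 1.83-fold and 1.68-fold lower, in AT2 than in Club cells (limma adjusted p = 0.0338, 0.0297 and 0.0459). Without single libraries Fosb was lost once (BASC replicate 2, limma adjusted p = 0.110), and Junb without either BASC library or Club replicate 2 (0.0704 to 0.128). Jund in BASC was lost without any BASC or Club library (limma adjusted p 0.106 to 0.177). In AT2 cells Jund was lost without any but AT2 replicate 1 (0.0567 to 0.183), Fosl2 without any but AT2 replicate 2 (0.0671 to 0.138) and Nr4a1 without any but Club replicate 2 (0.0729 to 0.309), by the limma adjusted p. The part of this list in the differences of the members was not tested.

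**Figure D5:**
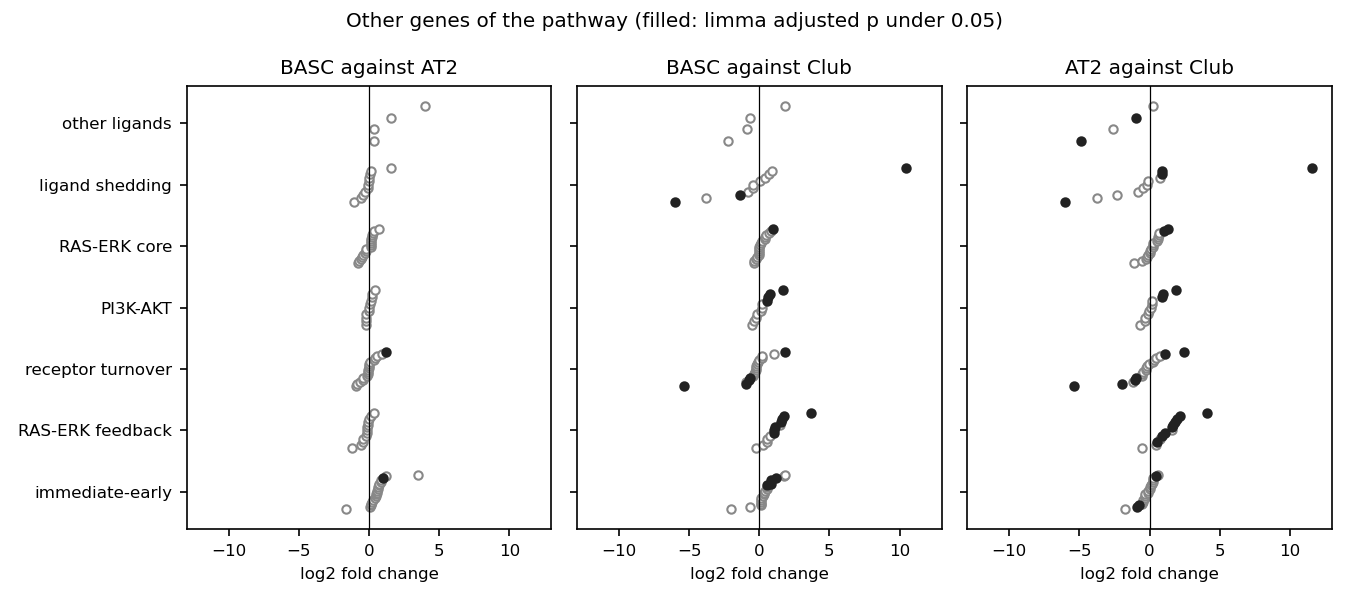
Fitted log2 fold changes of the genes of 7 pathway lists in the 3 comparisons, each point 1 gene that passed the filter. Filled points have a limma adjusted p under 0.05. Among the inhibitors of the RAS to ERK cascade, labelled feedback, they lie to the right of 0 in both comparisons with Club cells.

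The genes most like each member in pattern were found by the smallest root mean square difference of log2 profiles, each centred on its own mean, over the 6 samples and among protein-coding genes with a mean of at least 100. Nearest to Areg were Abcd3 (0.13), Bambi (0.13) and Sel1l3 (0.16), to Btc Mpzl1 (0.27), Bcar3 (0.28) and Zc3h12a (0.33), and to Errfi1 Lgals9 (0.04), Foxp1 (0.11) and Cndp2 (0.13). Erbb4 was nearest to Fcgbp (0.60), Gna14 (0.68) and Rp1 (0.74), and Erbb2 to Mia3 (0.08), Idh3b (0.10) and Tmem87a (0.11). For Egfr the nearest were Eif4e (0.16), Hap1 (0.19) and Pcdhgc5 (0.22), for Hbegf Etfdh (0.10), Ccnyl1 (0.10) and Tcp11l1 (0.10), for Erbb3 Chmp6 (0.04), Ubap2 (0.05) and Pithd1 (0.06), and for Ereg Ciita (1.01), Rprm (1.02) and Atp6v0a4 (1.23). Abcd3, a peroxisomal transporter gene, had 6192 and 6612 normalised counts in BASC, 8877 and 8883 in AT2 cells and 1442 and 2179 in Club cells. Mpzl1 had 343 and 340 in BASC, 82 and 72 in AT2 cells and 353 and 344 in Club cells. With 6 samples in 3 groups many genes share such a pattern, so these distances are a description.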

How the data were processed

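RNA of FACS-sorted cells was turned into stranded libraries from 100 pg of total RNA, per the labels. Per the submitters' processing notes, FastQC, STAR 2.4.0a and featureCounts 1.4.5-p1 (Subread) were used with mm10 (GRCm38). The deposited signal values look like read counts per gene that the authors scaled by sample and rounded, as judged from the numbers themselves. How they scaled, whether counting used strand and which annotation they used is not given in the sources used here. Each read was worth between 0.764 and 1.34 units, estimated from missing and doubled low numbers. Whole reads could not be recovered, so no count model was run.

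Genes reaching 10 in 2 or more samples (17721) were fitted as log2(value + 1) by group in limma 3.58.1 (R 4.3.3) with a trend, 2-sided, adjusted over all genes. The fit was tested on simulated data. Folds are ratios of group means. Exon lengths came from GENCODE mouse release 21. Members, lists and the rule for named genes were chosen with earlier results of these data known. All 9 members were named, with other ligands, up to 4 called genes per list and direction (mean of at least 100), and the 3 genes nearest in pattern to each member.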

Additional observations from a re-analysis of the deposited data

How the results depend on the processing

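Deviations of same-numbered samples correlated at 0.01 (r between 0.0060 and 0.0118 over the 3 pairs of groups). This cannot show whether same-numbered samples shared mice or a sort, and the labels do not say. With replicate number as a block, 1, 4 and 6 members were called, with 120, 1861 and 3045 genes over the table. The block added Erbb2 in BASC against Club cells (limma adjusted p = 0.0201). Counts here are in the order BASC against AT2 cells, BASC against Club cells and AT2 against Club cells. Leaving out each library in turn gave 0 to 1, 1 to 3 and 3 to 6 members, and 3 to 112, 853 to 1888 and 1539 to 3291 genes. Without a trend, limma called 0, 1 and 4 members in the same order, with 1183 genes in the second and 2028 in the third comparison. A mean filter of at least 50 raised the genes called in BASC against AT2 to 325. Without a length, the ligand to receptor ratio was 0.388 for BASC, 0.337 for AT2 and 0.194 for Club cells, against 0.834, 0.898 and 0.315 per kilobase; leaving out a replicate gave 0.635 to 1.03, 0.751 to 1.05 and 0.268 to 0.362.

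Some differences that were not called changed sign. Leaving out each library gave -0.59 to 0.34 for Hbegf, -0.13 to 0.35 for Erbb2 and -0.25 to 0.35 for Erbb3 in BASC against AT2 cells, as log2 fold changes. Hbegf there became 0.17 without BASC replicate 1 and 0.34 without AT2 replicate 2. Erbb2 became -0.13 under each of the same settings, and Erbb3 -0.25 without BASC replicate 1. Erbb3 in BASC against Club became -0.14 under quantile normalization, -0.060 with equal protein-coding totals, -0.29 without BASC replicate 1 and -0.0018 without Club replicate 1. Quantile normalization moved the median of all genes in AT2 against Club cells from -0.10 to 0.03, and equal protein-coding totals moved it to -0.22. Of the 10 member calls, Areg, Btc and Errfi1 in AT2 against Club cells held in all 16 alternatives. The calls of Erbb4 against Club cells held in the 13 alternatives that tested it. All of these kept both Club libraries, so they add no support. Leaving out either Club library or asking for a mean of at least 50 dropped Erbb4 from the test. Those alternatives therefore could not show whether its calls hold. The call of Errfi1 in BASC against Club cells was lost without a trend (limma adjusted p = 0.0568). The cause of lost calls was not tested. Of 2, 19 and 22 named pathway differences, 0 to 2, 6 to 16 and 13 to 16 were still called without a single library, and 0, 3 and 7 without a trend. Depth limits Ereg and Erbb4, whose values rest on few reads.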
